A study of Arabidopsis thaliana with 16 samples.

Results

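The genes described here are 43 nuclear genes of Arabidopsis that encode the light-harvesting antennae and the subunits of the photosystems. They were chosen by locus from their names (LHCA, LHCB, PSA and PSB) and not by a limit on any measured value. Earlier results of these data were known when the list was made. The list holds 43 of the 33681 genes in the tables. All 43 passed the filter on low counts, among 21309 genes tested. By role they were 15 LHCB antenna genes of photosystem II, 6 LHCA antenna genes of photosystem I, 12 PSA subunits of photosystem I and 10 PSB subunits of photosystem II. The smallest estimated count of a member in any library was 140.

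RNA was sequenced from flower buds collected before pollen mitosis, with anthers of stages 1 to 10, in 4 groups of 4 biological replicates. The groups were bhlh89,91 plants in low light, bhlh89,91 plants in normal light, Col-0 plants in low light and Col-0 plants in normal light. The bhlh89,91 plants carry T-DNA insertions SALK-123106 in bHLH89 and GK-345C06 in bHLH91, which encode tapetum transcription factors, and Col-0 is the wild type accession. All plants were grown in 16 h days, and at the onset of flowering some were shaded with nets to a photon flux of 53 ± 5 µmol m-2 s-1 (SD, labelled 50), while those in normal light received 205 ± 8.6 µmol m-2 s-1 (SD, labelled 200). A double mutant made from 1 insertion allele of each gene cannot separate the effect of either gene.

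Light-harvesting proteins bind chlorophyll and pass excitation energy to the reaction centres of photosystem II, which splits water, and photosystem I, which reduces ferredoxin. Plants in dim light commonly hold a larger antenna per reaction centre and less photoprotection than plants in strong light, and transcription of these genes is driven by light signalling, the clock and the GLK factors. In a flower bud most green tissue lies in sepals, young anther walls and carpels, and in bulk RNA a smaller share of green cells and less RNA per cell cannot be told apart.

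The 16 libraries held 20419800 to 23345600 estimated counts each, and the labels of the mutant were checked on bHLH89 (AT1G06170), which lay between 11.1 and 24.5 TPM (the abundance of a transcript relative to all transcripts, corrected for length) in the libraries of bhlh89,91 and between 27.7 and 51.3 TPM in those of Col-0. RNA of bHLH91 (AT2G31210) lay between 12.2 and 20.9 TPM in bhlh89,91 and between 21.1 and 23.6 TPM in Col-0 in low light. In normal light it lay between 21.4 and 25.5 TPM in bhlh89,91 and between 26.1 and 34.6 TPM in Col-0. The genotypes did not overlap within either light condition. The 5 floral organ identity genes, AP1, AP3, PI, AG and SEP3, were present in every library, with a summed level of 831 to 1065 TPM, whereas the 4 late pollen genes summed to at most 18.6 TPM, and 1 of them, MGH3, was at 0 in every library of bhlh89,91. Libraries are named by group and by the number of their column in the tables, and the values of a group are given in the order of columns 1 to 4.

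Together the 43 genes took 3.80% to 4.65% of all TPM in a library. Their share was 4.18% to 4.45% in bhlh89,91 in low light and 4.11% to 4.64% in bhlh89,91 in normal light. In Col-0 it was 3.80% to 4.16% in low light and 4.36% to 4.65% in normal light, so that the light conditions overlapped in the mutant and did not in Col-0. LHCB1.3 (AT1G29930) was the most abundant member, at a mean of 6199 TPM over the 16 libraries, 4th among all genes of the tables. LHCB1.5 (AT2G34420) followed at 3650 TPM, and LHCA4 (AT3G47470), PSBR (AT1G79040) and LHCA1 (AT3G54890) had 1927, 1693 and 1678 TPM. Of the 43 members, 38 had a mean of at least 100 TPM. The others were LHCB1.4 (AT2G34430) at 77.8 TPM, LHCB4.3 (AT2G40100) at 76.9 TPM, LHCA5 (AT1G45474) at 61.9 TPM, LHCA6 (AT1G19150) at 32.2 TPM and LHCB7 (AT1G76570), a rare antenna protein, at 9.50 TPM.

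The response to light was compared within each genotype with edgeR's quasi-likelihood F test, Benjamini-Hochberg adjusted over all 21309 genes, and a gene was called at an adjusted p under 0.05. Log2 fold changes (log2FC) come from that fit of the counts, and levels are in TPM. In low light, 15 of the 43 genes were lower and 3 were higher in bhlh89,91 than in normal light, where 16.6% of all genes tested were lower and 16.7% were higher. The median log2FC of the members was -0.068, against -0.0012 over all genes tested. In Col-0, 27 members were lower and 3 were higher in low light, where 28.9% of all genes tested were lower and 29.1% were higher. Their median log2FC was -0.23, against -0.0072 over all genes. The 15 members lower in bhlh89,91 were all among the 27 lower in Col-0. Of the 38 members with a mean of at least 100 TPM, 34.2% were lower and 5.26% higher in low light in bhlh89,91 with a median log2FC of -0.065, against 24.4% lower and 21.7% higher of all 1681 genes at that level with a median of -0.0098. In Col-0 63.2% of these members were lower and 2.63% higher with a median of -0.22, against 52.9% lower and 22.5% higher of the 1681 genes with a median of -0.19.

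**Figure D1:**
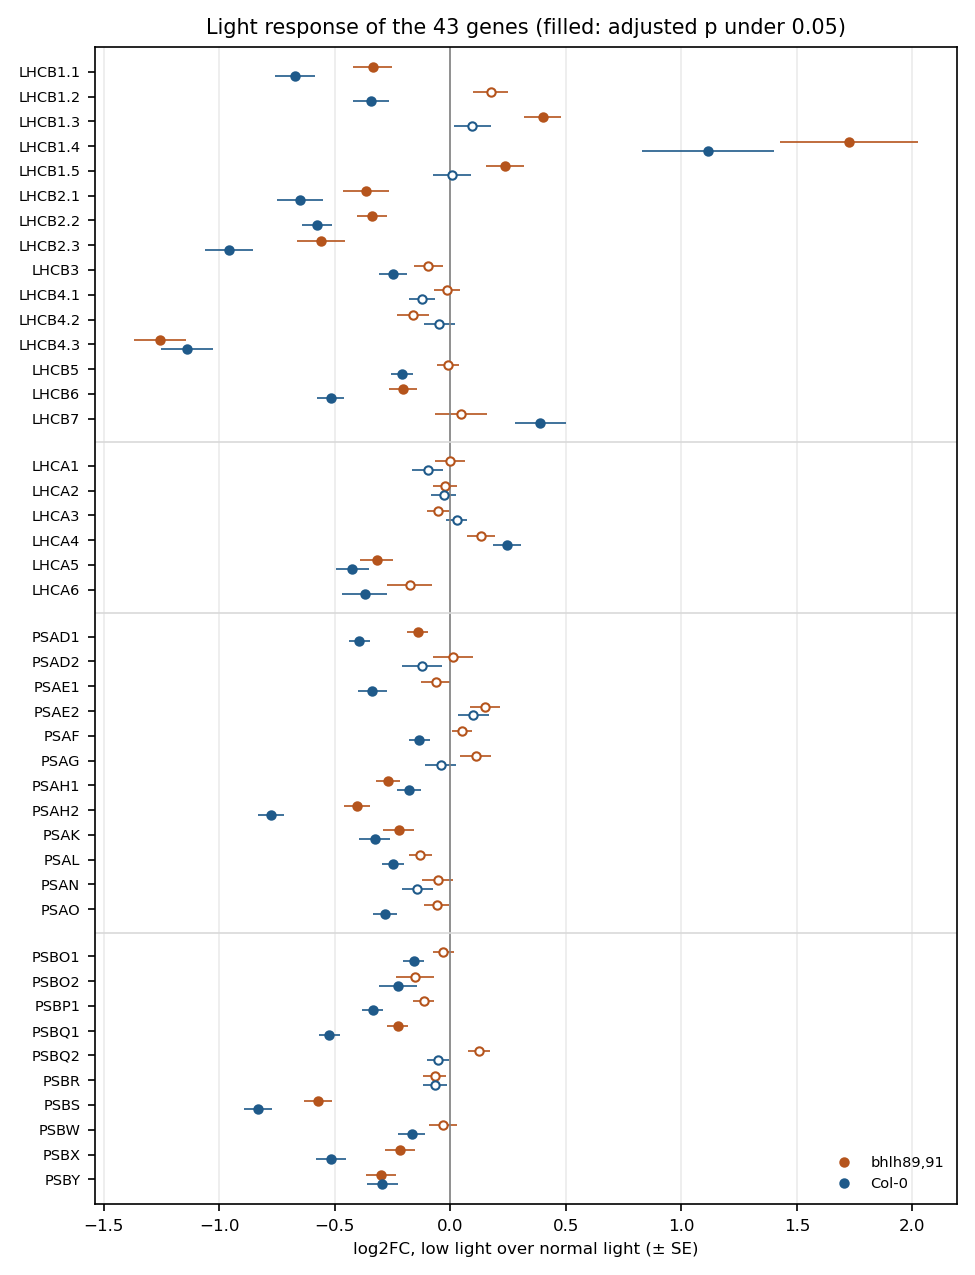
Log2FC of low over normal light for each of the 43 genes (x axis) in bhlh89,91 (orange, upper point of each pair) and Col-0 (blue, lower point), with SE bars and role groups divided by lines; filled points are called at an adjusted p under 0.05. Most points lie between -1 and 0.5, LHCB4.3 lies below -1 in both genotypes, and LHCB1.4 lies above 1 in both.

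By role, the genes lower in low light in bhlh89,91 were 4 of 10 PSB, 4 of 12 PSA, 6 of 15 LHCB and 1 of 6 LHCA genes, and the 3 higher ones were all LHCB1 copies. In Col-0 8 of 10 PSB and 8 of 12 PSA genes were lower and none was higher, 9 of 15 LHCB genes were lower and 2 higher, and 2 of 6 LHCA genes were lower and 1 higher. Of all genes tested, 16.6% were lower in low light in bhlh89,91 and 28.9% in Col-0. Of the 1681 genes of at least 100 TPM, 24.4% were lower in bhlh89,91 and 52.9% in Col-0. The study called a gene differentially expressed (DEG) where the adjusted p was below 0.01 and the log2FC was 1 or more in size. Under these limits 2 members remained in each genotype, against 3.42% of all genes tested in bhlh89,91 and 8.64% in Col-0. These were LHCB4.3 and LHCB1.4, which moved in opposite directions.

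LHCB4.3, also known as LHCB8, is an isoform of the minor antenna protein CP29 that is known to accumulate in strong light. It was at 60.03, 59.7, 47.5 and 42.1 TPM in bhlh89,91 in low light, against 134, 128, 117 and 129 TPM in bhlh89,91 in normal light. In Col-0 it was at 38.4, 36.1, 44.1 and 40.4 TPM in low light, against 92.7, 99.2, 92.2 and 69.6 TPM in normal light. No low light library reached the lowest normal light library of its genotype, and the transcript fell to 41.3% and 45.0% of its normal light TPM in bhlh89,91 and Col-0. Its log2FC was -1.26 ± 0.11 in bhlh89,91 and -1.14 ± 0.11 in Col-0 (SE; edgeR adjusted p = 1.38e-06 and 6.12e-07). The difference of both responses was -0.12 ± 0.16 (SE, edgeR adjusted p = 0.634). The other CP29 genes were far more abundant and passed the test in neither genotype: LHCB4.1 (AT5G01530) had log2FCs of -0.013 and -0.12, and LHCB4.2 (AT3G08940) of -0.16 and -0.047, in bhlh89,91 and Col-0. None of the 31-base stretches of the LHCB4.3 transcripts occurs in a transcript of another annotated gene.

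PSBS (AT1G44575) is the photosystem II protein that senses lumen acidity and starts the harmless release of excess excitation as heat. It was at 697, 600, 602 and 554 TPM in bhlh89,91 in low light and 923, 912, 936 and 928 TPM in bhlh89,91 in normal light, and at 432, 415, 433 and 397 TPM in Col-0 in low light and 787, 797, 762 and 662 TPM in Col-0 in normal light. The light conditions did not overlap within a genotype, and Col-0 in low light was the lowest group. The log2FC was -0.57 ± 0.059 in bhlh89,91 and -0.83 ± 0.059 in Col-0 (SE, edgeR adjusted p = 5.13e-06 and 2.73e-08). PSBS had the smallest adjusted p of all members in the Col-0 comparison.

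Genes of the water-splitting side of photosystem II had smaller log2FCs than PSBS. PSBQ1 (AT4G21280), an extrinsic subunit of the oxygen-evolving complex, was at 498, 503, 499 and 505 TPM in bhlh89,91 in low light and 611, 592, 615 and 568 TPM in bhlh89,91 in normal light. In Col-0 it was at 421, 406, 448 and 415 TPM in low light and 611, 617, 628 and 587 TPM in normal light. Its log2FC was -0.23 ± 0.046 in bhlh89,91 and -0.52 ± 0.046 in Col-0 (SE, edgeR adjusted p = 0.00136 and 1.93e-07), and the light conditions did not overlap in either genotype. Its paralogue PSBQ2 (AT4G05180) was not called in either genotype, with log2FCs of 0.12 and -0.054. PSBP1 (AT1G06680), another extrinsic subunit, was at 1014, 956, 930 and 949 TPM in bhlh89,91 in low light and 1014, 1019, 1086 and 1118 TPM in bhlh89,91 in normal light, groups that overlapped, and at 826, 796, 841 and 774 TPM in Col-0 in low light and 1007, 1048, 1067 and 990 TPM in Col-0 in normal light, which did not. Its log2FC was -0.12 ± 0.044 in bhlh89,91, which missed the threshold, and -0.34 ± 0.044 in Col-0 (SE, edgeR adjusted p = 0.0529 and 9.78e-06). PSBR, which also belongs to the oxygen-evolving side and was the most abundant PSB gene, was at 1763, 1627, 1598 and 1685 TPM in bhlh89,91 in low light and 1868, 1658, 1855 and 1718 TPM in bhlh89,91 in normal light, and at 1659, 1535, 1665 and 1630 TPM in Col-0 in low light and 1697, 1708, 1731 and 1692 TPM in Col-0 in normal light. The libraries overlapped in bhlh89,91 and lay apart in Col-0, but PSBR was not called in any of the 5 comparisons, with log2FCs of -0.068 in bhlh89,91 and -0.065 in Col-0. Of the manganese-stabilising proteins, PSBO1 (AT5G66570) and PSBO2 (AT3G50820) were not called in bhlh89,91, at log2FCs of -0.030 and -0.15, and were lower in low light in Col-0, at -0.16 and -0.23. The PSBO2 call was lost without any of 4 single libraries (edgeR adjusted p up to 0.0916, without Col-0 low light column 4). The small membrane subunits PSBX (AT2G06520) and PSBY (AT1G67740) were lower in both genotypes, with log2FCs of -0.22 and -0.30 in bhlh89,91 and -0.52 and -0.29 in Col-0. The PSBX call in bhlh89,91 was lost without either of 2 single libraries (edgeR adjusted p up to 0.0648, without bhlh89,91 normal light column 3). PSBW (AT2G30570) was not called in bhlh89,91, at -0.030, and was lower in Col-0, at -0.17. The PSBW call was lost without any of 5 single libraries (edgeR adjusted p up to 0.0738, without Col-0 normal light column 4).

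Among the photosystem I subunits, PSAH2 (AT1G52230) had the largest fall. PSAH, with PSAL and PSAO, forms the side of photosystem I where mobile antenna docks during state transitions. PSAH2 was at 870, 917, 877 and 950 TPM in bhlh89,91 in low light and 1176, 1131, 1280 and 1271 TPM in bhlh89,91 in normal light, and at 616, 653, 659 and 584 TPM in Col-0 in low light and 1068, 1113, 1064 and 1083 TPM in Col-0 in normal light. The libraries of the light conditions were separate in both genotypes, and the log2FCs were -0.40 ± 0.056 in bhlh89,91 and -0.78 ± 0.056 in Col-0 (SE, edgeR adjusted p = 7.06e-05 and 3.35e-08). Its paralogue PSAH1 (AT3G16140) was lower too, by smaller log2FCs of -0.27 and -0.18. PSAL (AT4G12800), the most abundant PSA gene, was at 982, 932, 901 and 913 TPM in bhlh89,91 in low light and 977, 965, 1103 and 1099 TPM in bhlh89,91 in normal light, and at 882, 837, 867 and 819 TPM in Col-0 in low light and 1003, 1023, 1070 and 971 TPM in Col-0 in normal light. The conditions overlapped in bhlh89,91 and not in Col-0, with log2FCs of -0.13 ± 0.049 and -0.25 ± 0.049 (SE, edgeR adjusted p = 0.0524 and 0.000485).

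PSAD1 (AT4G02770), which docks ferredoxin on the stromal side, was at 784, 781, 754 and 761 TPM in bhlh89,91 in low light and 865, 824, 913 and 847 TPM in bhlh89,91 in normal light, and at 682, 620, 691 and 630 TPM in Col-0 in low light and 878, 880, 868 and 840 TPM in Col-0 in normal light. It was lower in low light in both genotypes, by log2FCs of -0.14 ± 0.046 and -0.39 ± 0.046 (SE, edgeR adjusted p = 0.0276 and 3.46e-06). The call in bhlh89,91 was lost under 1 other method and without any of 3 single libraries, with an edgeR adjusted p of up to 0.113 (without bhlh89,91 normal light column 3). Its paralogue PSAD2 (AT1G03130) was not called, at 0.011 and -0.12. The PSAE pair helps ferredoxin binding: PSAE1 (AT4G28750) was not called in bhlh89,91 at -0.063 and was lower in Col-0 at -0.34, and PSAE2 (AT2G20260) had 0.15 and 0.099 with no call. PSAK (AT1G30380), which lies at the antenna side, was lower in both genotypes, at -0.22 in bhlh89,91 and -0.33 in Col-0. The PSAK call in bhlh89,91 was lost without any of 3 single libraries (edgeR adjusted p up to 0.0656, without bhlh89,91 low light column 3). PSAO (AT1G08380) and the plastocyanin-docking subunit PSAF (AT1G31330) were not called in bhlh89,91, at -0.059 and 0.051, and were lower in Col-0, at -0.28 and -0.13. The PSAF call was lost without 1 library (edgeR adjusted p = 0.0514, without Col-0 low light column 2). PSAG (AT1G55670) and PSAN (AT5G64040) were called in neither genotype, with log2FCs of 0.11 and -0.055 in bhlh89,91 and -0.041 and -0.14 in Col-0.

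The LHCA proteins form the fixed antenna belt of photosystem I. Their main genes moved little: LHCA1, LHCA2 (AT3G61470) and LHCA3 (AT1G61520) had log2FCs between -0.098 and 0.027 in the 2 genotypes and no call. LHCA4, whose protein carries the far-red chlorophylls, was at 1970, 1773, 1924 and 1967 TPM in bhlh89,91 in low light and 1871, 1681, 1879 and 1633 TPM in bhlh89,91 in normal light, which overlapped. In Col-0 it was at 2158, 2120, 2276 and 2179 TPM in low light and 1793, 1778, 1899 and 1934 TPM in normal light, which did not, and it was one of the 3 members higher in low light there. Its log2FC was 0.13 ± 0.062 in bhlh89,91 and 0.25 ± 0.062 in Col-0 (SE, edgeR adjusted p = 0.110 and 0.00305). LHCA5 and LHCA6 are minor proteins that link photosystem I to the NDH complex of cyclic electron flow. LHCA5 was at 62.7, 60.7, 54.1 and 63.3 TPM in bhlh89,91 in low light and 75.7, 76.8, 75.5 and 77.2 TPM in bhlh89,91 in normal light, and at 53.1, 45.5, 49.3 and 41.6 TPM in Col-0 in low light and 60.05, 65.3, 65.8 and 64.2 TPM in Col-0 in normal light. Its light conditions did not overlap, and it was lower in low light in both genotypes, with log2FCs of -0.32 ± 0.070 and -0.42 ± 0.071 (SE, edgeR adjusted p = 0.00277 and 0.000111). LHCA6 was not called in bhlh89,91 at -0.18 and was lower in Col-0 at -0.37.

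**Figure D2:**
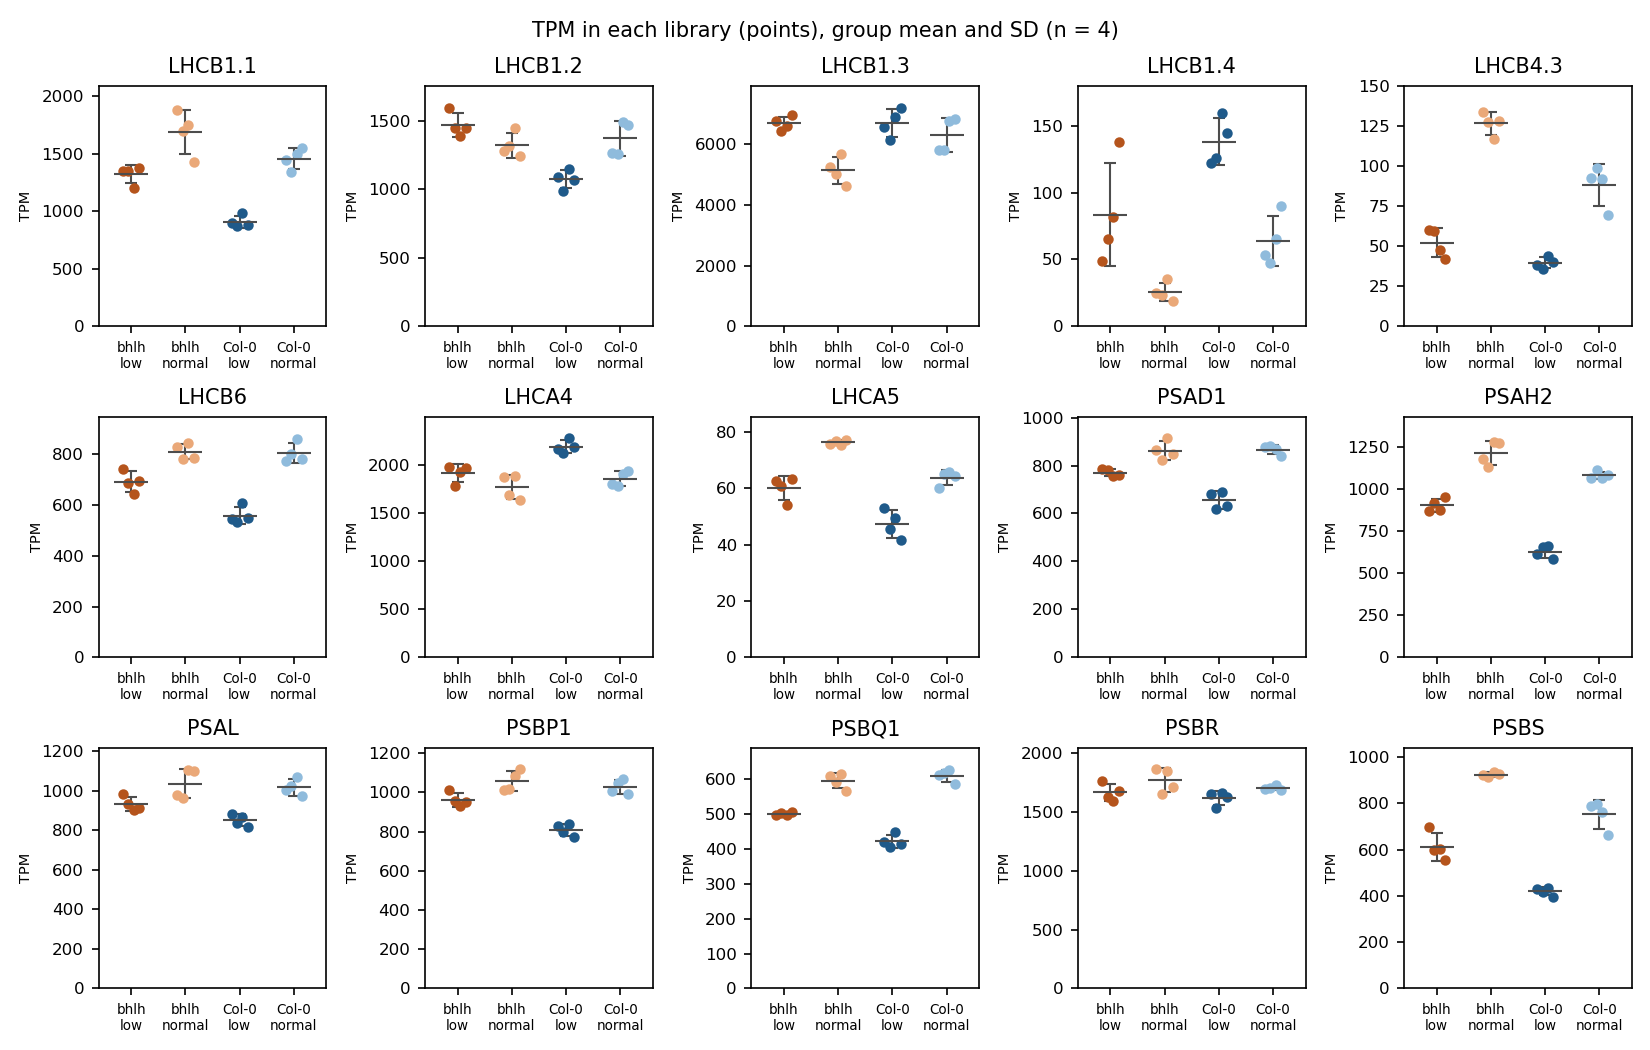
TPM (y axis, from 0) of the 15 members described in full, with 1 point per library, and the group mean and SD (n = 4) as bars; groups run from bhlh89,91 (bhlh) in low and normal light to Col-0 in low and normal light. In PSBS, PSAH2, LHCB6 and LHCB1.1 the Col-0 low light libraries are the lowest of all 4 groups, and in LHCB1.4 the bhlh89,91 normal light libraries are.

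The LHCB1 genes encode the main protein of the trimeric antenna LHCII, and they did not move together. LHCB1.1 to LHCB1.3 lie within 7 kb of chromosome 1 (TAIR10.1), at chr1:10474656-10475969 for LHCB1.1 (AT1G29920), chr1:10472280-10473502 for LHCB1.2 (AT1G29910) and chr1:10477885-10479114 for LHCB1.3, while LHCB1.4 (chr2:14524607-14525918) and LHCB1.5 (chr2:14522524-14523568) are neighbours on chromosome 2. Their transcripts share sequence: 31.1%, 25.1%, 32.1%, 23.5% and 29.5% of the 31-base stretches of LHCB1.1 to LHCB1.5 occur in another annotated transcript, mostly of another copy, so the split of reads between copies is an estimate. The 150 bases before the annotated start of 4 copies are shown because the copies responded differently, in capitals where they match a CCA1-binding site (AAAAATCT) or a CCAATC element on either strand. The windows, in order, are chr1:10475970-10476119 and chr1:10473503-10473652 on the minus strand, and chr1:10477735-10477884 and chr2:14524457-14524606 on the plus strand of TAIR10.1, read with RefSeq's annotation.
LHCB1.1: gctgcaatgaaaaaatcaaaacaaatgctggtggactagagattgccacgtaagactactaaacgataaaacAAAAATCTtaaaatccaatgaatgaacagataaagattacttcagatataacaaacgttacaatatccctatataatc
LHCB1.2: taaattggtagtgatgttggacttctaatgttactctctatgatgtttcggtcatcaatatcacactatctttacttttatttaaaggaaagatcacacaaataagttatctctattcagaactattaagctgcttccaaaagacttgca
LHCB1.3: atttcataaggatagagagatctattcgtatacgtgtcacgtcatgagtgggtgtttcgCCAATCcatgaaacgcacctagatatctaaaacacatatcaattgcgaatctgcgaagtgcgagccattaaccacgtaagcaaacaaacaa
LHCB1.4: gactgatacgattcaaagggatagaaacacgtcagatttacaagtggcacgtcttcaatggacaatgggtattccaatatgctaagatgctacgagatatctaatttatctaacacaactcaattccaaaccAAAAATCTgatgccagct

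The pair with a CCA1-binding site in this window, LHCB1.1 and LHCB1.4, moved in opposite directions. LHCB1.1 was at 1345, 1351, 1205 and 1377 TPM in bhlh89,91 in low light and 1881, 1698, 1749 and 1430 TPM in bhlh89,91 in normal light, and at 893, 873, 985 and 882 TPM in Col-0 in low light and 1442, 1339, 1494 and 1550 TPM in Col-0 in normal light. It was lower in low light with no overlap, at log2FCs of -0.34 ± 0.085 and -0.67 ± 0.085 (SE, edgeR adjusted p = 0.00683 and 7.48e-06). LHCB1.4 was at 49.0, 65.3, 81.4 and 138 TPM in bhlh89,91 in low light and 24.7, 23.6, 35.6 and 18.8 TPM in bhlh89,91 in normal light, and at 122, 126, 159 and 145 TPM in Col-0 in low light and 53.4, 47.1, 65.5 and 89.8 TPM in Col-0 in normal light. It was higher in low light with no overlap within a genotype, at log2FCs of 1.73 ± 0.30 and 1.11 ± 0.28 (SE, edgeR adjusted p = 0.000446 and 0.00338), and its libraries spread more, relative to their mean, than those of the other copies in every group. LHCB1.2 was at 1593, 1448, 1391 and 1447 TPM in bhlh89,91 in low light and 1277, 1317, 1447 and 1241 TPM in bhlh89,91 in normal light, which overlapped, and at 1092, 988, 1148 and 1070 TPM in Col-0 in low light and 1268, 1258, 1489 and 1466 TPM in Col-0 in normal light, which did not. Its log2FC was 0.18 ± 0.076 in bhlh89,91 and -0.34 ± 0.076 in Col-0 (SE, edgeR adjusted p = 0.0895 and 0.00124). LHCB1.3 was at 6753, 6433, 6586 and 6938 TPM in bhlh89,91 in low light and 5236, 5009, 5686 and 4624 TPM in bhlh89,91 in normal light, which did not overlap, and at 6569, 6119, 6877 and 7193 TPM in Col-0 in low light and 5789, 5816, 6747 and 6809 TPM in Col-0 in normal light, which did. It was higher in low light in bhlh89,91 at 0.40 ± 0.080 and had 0.096 ± 0.080 in Col-0 (SE, edgeR adjusted p = 0.00145 and 0.322), and the first call was lost under 1 other method. LHCB1.5 was called higher in bhlh89,91 at 0.24 and had 0.0074 in Col-0. The call of LHCB1.5 was lost under 4 other methods and without any of 6 single libraries (edgeR adjusted p up to 0.118, without bhlh89,91 normal light column 4).

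With the counts of the 5 copies added before the fit, which leaves out the split of reads between copies, LHCB1 was higher in low light in bhlh89,91 at a log2FC of 0.24 ± 0.075 and had -0.041 ± 0.075 in Col-0 (SE, edgeR adjusted p = 0.0232 and 0.660); the difference of these responses was 0.28 ± 0.11 (SE, edgeR adjusted p = 0.0697). In the make-up of the LHCB1 pool, the shares of LHCB1.1 and LHCB1.3 did not overlap between light conditions in either genotype. LHCB1.1 made 9.92 ± 0.498% of the summed LHCB1 TPM in bhlh89,91 in low light and 14.8 ± 0.683% in bhlh89,91 in normal light, and 7.21 ± 0.371% in Col-0 in low light and 11.2 ± 0.418% in Col-0 in normal light (SD, n = 4). LHCB1.3 made 50.2 ± 1.24% and 45.1 ± 1.51% in bhlh89,91 in low and normal light, and 53.0 ± 1.21% and 48.4 ± 0.666% in Col-0 (SD, n = 4). LHCB1.4 never made more than 1.21% of the pool in a library.

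**Figure D3:**
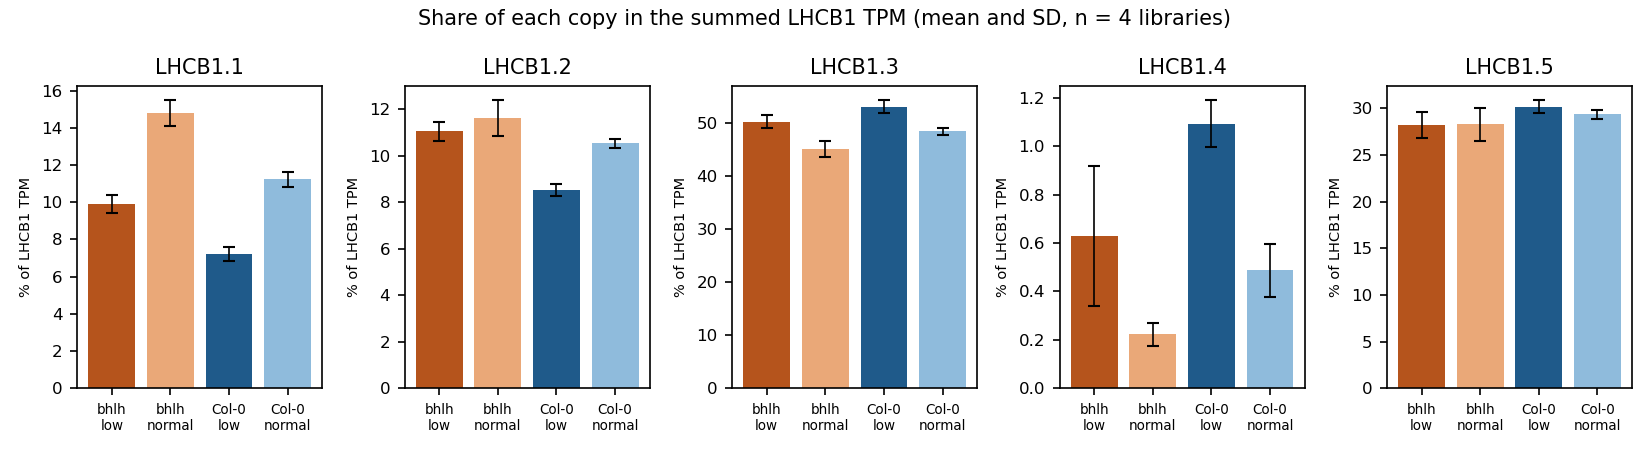
Share of each LHCB1 copy in the summed LHCB1 TPM (y axes from 0, in percent) as mean and SD of 4 libraries, for bhlh89,91 (bhlh) in low and normal light and Col-0 in low and normal light. The share of LHCB1.1 is lower, and the shares of LHCB1.3 and LHCB1.4 are higher, in low light than in normal light in both genotypes.

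The LHCB2 genes, whose proteins are phosphorylated in state transitions, all fell. LHCB2.1 (AT2G05100), LHCB2.2 (AT2G05070) and LHCB2.3 (AT3G27690) had log2FCs of -0.37, -0.34 and -0.56 in bhlh89,91 and -0.65, -0.58 and -0.96 in Col-0, all called. LHCB2.1 and LHCB2.2 share 31.2% and 39.4% of their 31-base stretches with another transcript, and the summed LHCB2 counts were lower in low light, at log2FCs of -0.38 ± 0.080 in bhlh89,91 and -0.66 ± 0.081 in Col-0 (SE, edgeR adjusted p = 0.00212 and 5.41e-06). LHCB3 (AT5G54270), the third LHCII protein, and LHCB5 (AT4G10340), the minor antenna protein CP26, were not called in bhlh89,91 at -0.095 and -0.0092, and were lower in Col-0 at -0.25 and -0.21. LHCB6 (AT1G15820), the minor antenna protein CP24, was at 743, 688, 642 and 695 TPM in bhlh89,91 in low light and 827, 782, 844 and 787 TPM in bhlh89,91 in normal light, and at 544, 532, 607 and 549 TPM in Col-0 in low light and 772, 802, 860 and 781 TPM in Col-0 in normal light. No library overlapped between light conditions, and its log2FC was -0.21 ± 0.060 in bhlh89,91 and -0.52 ± 0.060 in Col-0 (SE, edgeR adjusted p = 0.0156 and 3.18e-06). The call in bhlh89,91 was lost without either of 2 single libraries (edgeR adjusted p up to 0.0557, without bhlh89,91 low light column 3). The rare LHCB7 had 0.048 in bhlh89,91 and was higher in low light in Col-0 at 0.39.

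The genotypes were then compared within each light condition. In low light 24 of the 43 genes were higher and 2 were lower in bhlh89,91 than in Col-0, where 25.1% of all genes tested were higher and 24.3% were lower. The median log2FC of the members was 0.16, against 0.0043 over all genes. In normal light 5 members were higher and 2 were lower in bhlh89,91, where 9.00% of all genes were higher and 7.66% were lower, with medians of 0.036 over the members and -0.0020 over all genes. Of the 24 members higher in low light, 4 were also higher in normal light: LHCB4.3, LHCA5, PSAH2 and PSBS. The genotype comparison in low light and the light comparison in Col-0 share the 4 Col-0 low light libraries, so their calls are not separate evidence. Abundant genes set a different background here too. Of the 38 members at 100 TPM or more, 55.3% were higher in bhlh89,91 in low light, with a median of 0.15. Of the 1681 genes at that level 49.6% were, with a median of 0.16. Lower in bhlh89,91 were 5.26% of these members, against 18.2% of the 1681 genes. None of the members was a DEG between genotypes in low light, where 6.18% of all genes were, and LHCB1.4 was the only one in normal light, where 1.59% of all genes were.

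**Figure D4:**
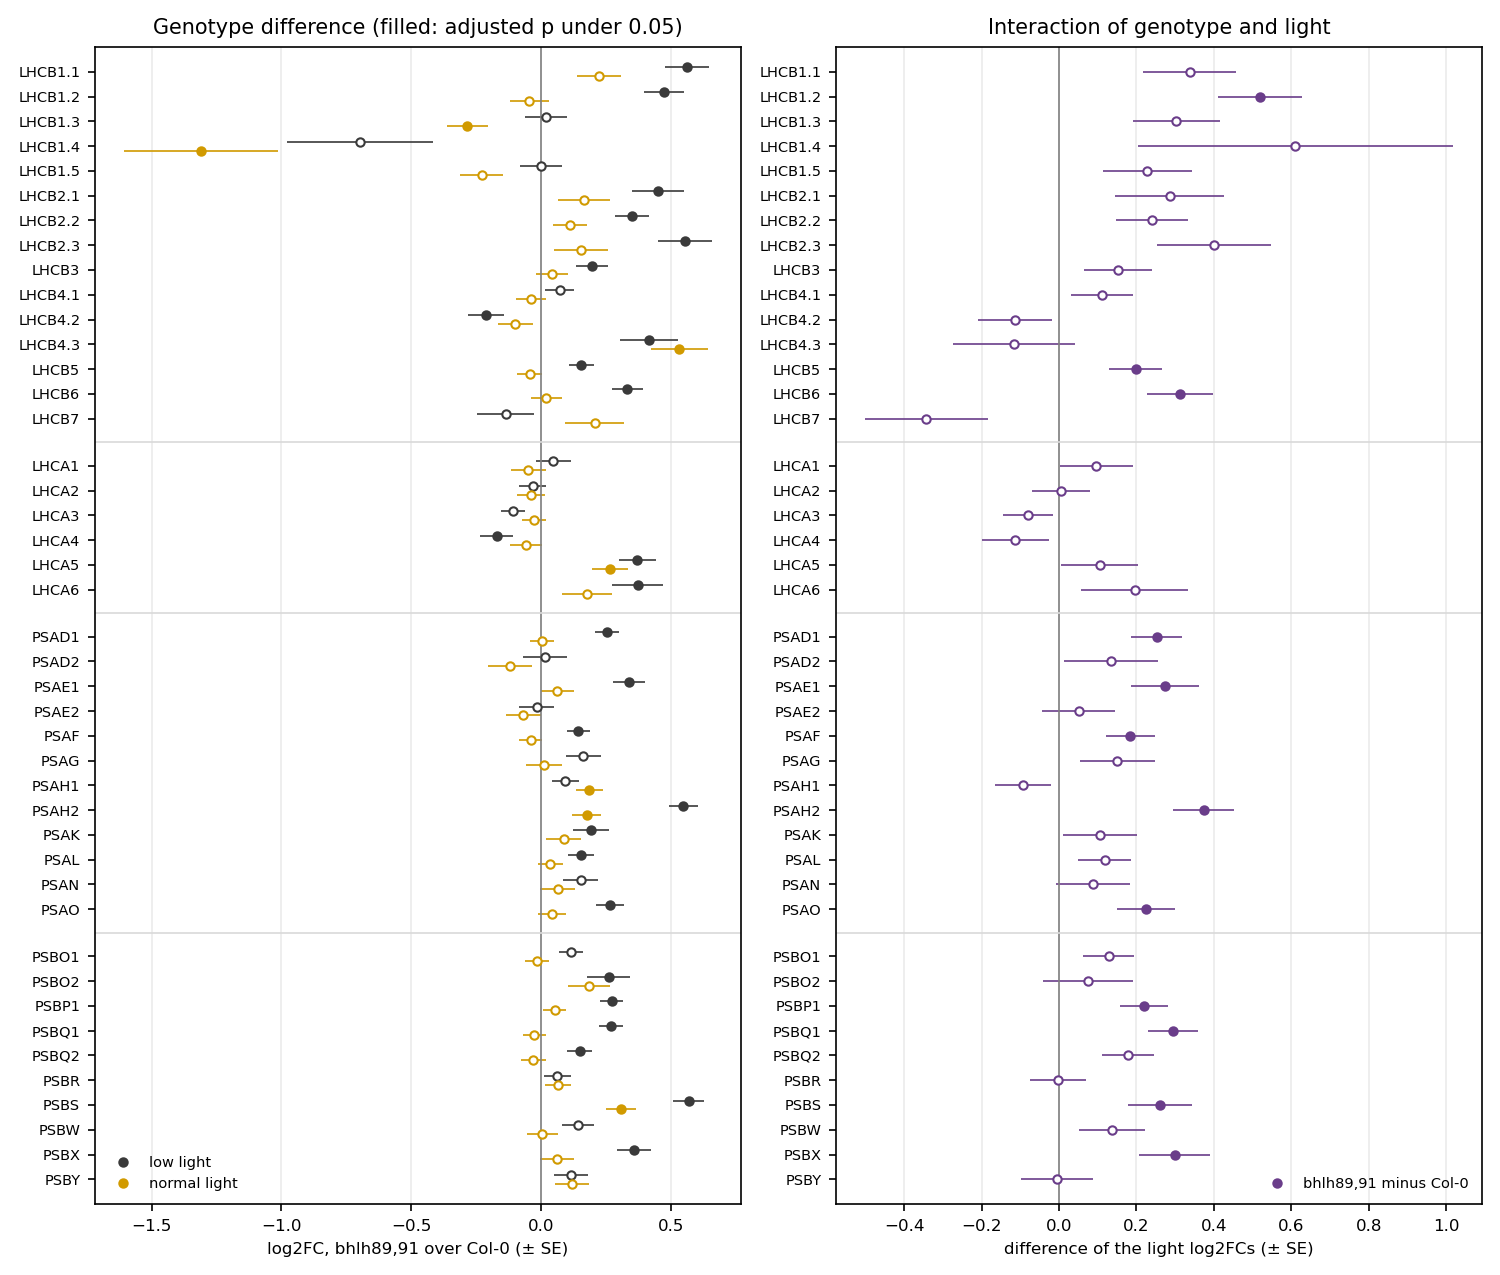
Left, log2FC of bhlh89,91 over Col-0 for each of the 43 genes in low light (dark grey, upper point) and normal light (yellow, lower point); right, the light log2FC of bhlh89,91 minus that of Col-0. Bars are SE and filled points are called at an adjusted p under 0.05: 24 dark points are called to the right of 0 and 2 to the left, and the 12 filled points of the right panel all lie above 0.

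In low light the largest called differences were those of PSBS, LHCB1.1, LHCB2.3 and PSAH2. PSBS was at 613 ± 60.2 TPM in bhlh89,91 and 419 ± 16.9 TPM in Col-0 (SD, n = 4 each), with no overlap and a log2FC of 0.57 ± 0.059 (SE, edgeR adjusted p = 2.38e-06). PSAH2 averaged 904 ± 37.3 TPM in bhlh89,91 and 628 ± 35.0 TPM in Col-0 (SD, n = 4 each), a log2FC of 0.55 ± 0.056 (SE, edgeR adjusted p = 2.19e-06). LHCB1.1 averaged 1319 ± 77.5 TPM in bhlh89,91 and 908 ± 51.7 TPM in Col-0 (SD, n = 4 each), a log2FC of 0.56 ± 0.085 (SE, edgeR adjusted p = 7.18e-05). In all 3 genes each bhlh89,91 library lay above each Col-0 library. LHCB1.2 and PSBP1 were higher as well, at log2FCs of 0.47 ± 0.076 and 0.27 ± 0.044 (SE, edgeR adjusted p = 0.000121 and 0.000117), again with no overlap. Among all genes tested 25.1% were higher in bhlh89,91 in low light, and among the 1681 genes of at least 100 TPM 49.6%. By role the higher members were 9 of 15 LHCB, 2 of 6 LHCA, 7 of 12 PSA and 6 of 10 PSB genes. The lower ones were LHCA4, at -0.17 ± 0.062 (SE, edgeR adjusted p = 0.0307), and LHCB4.2, at -0.21 ± 0.068 (SE, edgeR adjusted p = 0.0172). The LHCA4 call was lost under 1 other method and without any of 4 single libraries (edgeR adjusted p up to 0.0791, without bhlh89,91 low light column 2). That of LHCB4.2 was lost without 1 library (edgeR adjusted p = 0.0501, without Col-0 low light column 3). Of the 26 calls, 18 were kept without any single library and under every other tool, normalization and filter applied to the single genes. Counts summed over a gene family were fitted apart from these. The sums of LHCB1 and LHCB4 in low light were not called, at 0.11 ± 0.075 and -0.017 ± 0.054 (SE, edgeR adjusted p = 0.254 and 0.808). Those of LHCB2, PSAH, PSBQ, PSAE, PSAD and PSBO were called higher in bhlh89,91, at log2FCs of 0.42, 0.33, 0.20, 0.19, 0.16 and 0.14.

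In normal light PSBS was higher in bhlh89,91, at 925 ± 9.93 TPM in bhlh89,91 and 752 ± 61.6 TPM in Col-0 (SD, n = 4 each), with a log2FC of 0.31 ± 0.058 (SE, edgeR adjusted p = 0.00256). LHCB4.3 was higher too, at 0.53 ± 0.11 (SE, edgeR adjusted p = 0.00430), and in low light at 0.42 ± 0.11 (SE, edgeR adjusted p = 0.00638), where 1 library of each genotype overlapped. LHCB1.4 was at 40.1% of its Col-0 level, with a log2FC of -1.31 ± 0.30 in normal light (SE, edgeR adjusted p = 0.00773). In low light LHCB1.4 overlapped between genotypes and just missed the threshold, at -0.70 ± 0.28 (SE, edgeR adjusted p = 0.0503). LHCB1.3 was lower in normal light at -0.28 ± 0.080 and LHCA5 was higher at 0.27 ± 0.070 (SE, edgeR adjusted p = 0.0251 and 0.0180). PSAH1 and PSAH2 were higher at 0.19 ± 0.051 and 0.18 ± 0.056 (SE, edgeR adjusted p = 0.0227 and 0.0420). Of these 7 calls, 3 were kept without any single library and under every other tool, normalization and filter applied to the single genes, those of LHCB1.4, LHCB4.3 and PSBS. The summed counts of LHCB1 and of LHCB4 were not called, at -0.17 ± 0.075 and -0.018 ± 0.054 (SE, edgeR adjusted p = 0.131 and 0.855). The PSAH sum was the only family sum called, higher in bhlh89,91 at 0.18 ± 0.046 (SE, edgeR adjusted p = 0.0154). The call of LHCB1.3 was lost under 4 other methods and without any of 4 libraries (edgeR adjusted p up to 0.0850, without Col-0 normal light column 4), that of LHCA5 without 1 (0.0542, without Col-0 normal light column 1), that of PSAH1 without any of 3 (up to 0.0668, without bhlh89,91 normal light column 1) and that of PSAH2 without any of 10 (up to 0.135, without bhlh89,91 normal light column 3).

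Whether the light response differed between genotypes was tested directly as the interaction, the light log2FC of bhlh89,91 minus that of Col-0. The interaction was fitted on the same libraries as the light and genotype comparisons, so its calls are not separate evidence. It was above 0 and called for 12 of the 43 genes and below 0 and called for none, where 11.9% of all genes tested were called above 0 and 11.1% below. The median over the members was 0.15, against 0.0020 over all genes. Among the 38 abundant members 31.6% were called above 0 with a median of 0.17. That share was near that of all 1681 abundant genes, of which 33.0% were called above 0 with a median of 0.15. None of these members was called below 0, against 7.50% of the 1681 genes. No member met the limits of a DEG for the interaction, where 2.33% of all genes did. The 12 genes were 3 LHCB, 5 PSA and 4 PSB genes and no LHCA gene. LHCB1.2 had the largest called value, 0.52 ± 0.11 (SE, edgeR adjusted p = 0.00323), followed by PSAH2 at 0.37 ± 0.079, LHCB6 at 0.31 ± 0.085, PSBX at 0.30 ± 0.092 and PSBQ1 at 0.30 ± 0.064 (SE, edgeR adjusted p = 0.00355, 0.0157, 0.0292 and 0.00428). In PSAH2, LHCB6, PSBX and PSBQ1 the transcript was lower in low light in both genotypes, and by less in bhlh89,91. PSAD1 and PSBP1 had 0.25 ± 0.065 and 0.22 ± 0.062 (SE, edgeR adjusted p = 0.0119 and 0.0184), and PSBS 0.26 ± 0.083 (SE, edgeR adjusted p = 0.0336). The others were PSAE1, PSAO, LHCB5 and PSAF, at 0.27, 0.22, 0.20 and 0.18. The count depended on single libraries: when 1 library was left out, 6 genes were called if it was column 1 of bhlh89,91 in low light, column 2 of Col-0 in low light or column 3 of Col-0 in normal light, and 7 if it was column 4 of Col-0 in low light. The calls of LHCB1.2, LHCB6, PSAD1, PSAH2 and PSBQ1 were kept without any single library and under every other tool, normalization and filter applied to the single genes. With counts summed over the family, PSBQ kept its call, at 0.22 ± 0.060, and LHCB1, PSAD and PSAH did not, at 0.28 ± 0.11, 0.20 ± 0.078 and 0.15 ± 0.065 (SE, edgeR adjusted p = 0.0152, 0.0697, 0.0732 and 0.114). The call of PSBS was lost under 3 other methods and without any of 7 libraries (edgeR adjusted p up to 0.0709, without Col-0 normal light column 2).

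LHCB6, PSAH2 and PSBQ1 have a G-box (CACGTG, a site that bHLH and bZIP factors of light signalling can bind) within 250 bases before their annotated start. Such a site stood there in 9 of the 43 members, or 20.9%, against 6.49% of 27443 protein-coding genes. Of these 9 genes 3 were called for the interaction, against 12 of all 43 members, or 27.9%, and 11.9% of all genes tested. The other 6, LHCB2.3, LHCB4.1, LHCB7, LHCA4, PSAE2 and PSBQ2, were not called for it, and PSBQ2 holds 2 G-boxes as PSBQ1 does. An I-box (GATAAG) stood within these 250 bases in 9 members, 20.9%, against 12.3% of all genes, and a CCAATC element in 11 members, 25.6%, against 10.2%. A CCA1-binding site stood there in 5 members, 11.6%, against 6.69%, and an evening element (AAAATATCT) in 1 member, 2.33%, against 2.36%. These are counts of letters on either strand, with no test, and motifs of a window can share bases. The 150 bases before the start of the 3 genes with both a G-box and an interaction call are shown, followed by LHCA4, which holds a G-box as well and was higher in Col-0 in low light, with G-boxes, I-boxes and CCAATC elements in capitals. The windows are chr1:5447881-5448030 on the minus strand, chr1:19454648-19454797 and chr4:11334202-11334351 on the plus strand, and chr3:17495034-17495183 on the minus strand of TAIR10.1.
LHCB6: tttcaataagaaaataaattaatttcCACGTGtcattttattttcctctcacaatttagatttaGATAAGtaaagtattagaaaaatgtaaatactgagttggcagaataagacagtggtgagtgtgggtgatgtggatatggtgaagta
PSAH2: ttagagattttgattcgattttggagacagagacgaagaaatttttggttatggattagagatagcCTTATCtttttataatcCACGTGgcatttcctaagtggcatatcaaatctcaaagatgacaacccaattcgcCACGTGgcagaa
PSBQ1: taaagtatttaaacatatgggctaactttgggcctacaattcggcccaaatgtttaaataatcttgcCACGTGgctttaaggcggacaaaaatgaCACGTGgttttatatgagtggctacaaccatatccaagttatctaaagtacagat
LHCA4: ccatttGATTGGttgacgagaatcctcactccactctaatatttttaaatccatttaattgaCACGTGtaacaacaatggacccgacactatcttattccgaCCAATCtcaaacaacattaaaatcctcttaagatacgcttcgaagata

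Other genes of the light reactions were counted from 5 lists, of which 23 genes were tested. In low light 8 of them were lower and 4 higher in bhlh89,91, where 16.6% of all genes tested were lower and 16.7% higher. In Col-0 9 were lower and 5 higher, where 28.9% of all genes were lower and 29.1% higher. In bhlh89,91 9 were higher and 4 lower than in Col-0 in low light, where 25.1% of all genes were higher and 24.3% lower. In normal light 8 were higher and 1 lower, where 9.00% were higher and 7.66% lower. For the interaction 2 of the 23 were called above 0 and 2 below, where 11.9% of all genes were called above 0 and 11.1% below. Those above were FD1 and ATPD. Those below were PGRL1A at -0.24 ± 0.080 and ALB3 at -0.20 ± 0.063 (SE, edgeR adjusted p = 0.0398 and 0.0361). The stromal ferredoxin FD1 (AT1G10960) had the largest fall of the electron carriers, with a log2FC of -0.43 in bhlh89,91 and -1.01 in Col-0, and its interaction was 0.58 ± 0.11 (SE, edgeR adjusted p = 0.00147). FNR1 (ferredoxin reductase) and PGR5 (cyclic electron flow) were lower in both genotypes, at -0.24 and -0.39 in bhlh89,91 and -0.23 and -0.50 in Col-0, while FD2 and PETE2 (plastocyanin) were called in Col-0 and not in bhlh89,91, at -0.10 and -0.090 in bhlh89,91 and -0.37 and -0.23 in Col-0. PETC (the Rieske protein) and PGRL1A were lower in bhlh89,91, at -0.30 and -0.20, and were not called in Col-0, at -0.14 and 0.046. The ATP synthase subunit gene ATPD had -0.23 in bhlh89,91 and -0.64 in Col-0, and an interaction of 0.40 ± 0.087 (SE, edgeR adjusted p = 0.00414). CURT1A, which bends grana margins, was lower at -0.19 in bhlh89,91 and -0.38 in Col-0, and CPFTSY, a receptor for antenna proteins at the thylakoid, had -0.10 without a call in bhlh89,91 and was lower at -0.28 in Col-0.

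A group of genes ran the other way. ALB3 (AT2G28800), which inserts antenna proteins into the thylakoid membrane, was higher in low light at 0.37 ± 0.045 in bhlh89,91 and 0.56 ± 0.045 in Col-0 (SE, edgeR adjusted p = 2.36e-05 and 8.06e-08), with 147 ± 5.88 and 115 ± 2.02 TPM in bhlh89,91 in low and normal light and 192 ± 1.91 and 131 ± 4.63 TPM in Col-0 (SD, n = 4 each). TAP38 (AT4G27800), the phosphatase that reverses LHCII phosphorylation, was higher in low light at 0.39 ± 0.061 and 0.62 ± 0.060 (SE, edgeR adjusted p = 0.000208 and 5.51e-07). The photosystem II kinase STN8 and the cytochrome b6f subunit gene PETM were higher in both genotypes too, at 0.25 and 0.17 in bhlh89,91 and 0.24 and 0.35 in Col-0, and FNR2 was higher in Col-0 at 0.28. In low light ALB3, TAP38, STN8 and PETM were lower in bhlh89,91 than in Col-0, at -0.37, -0.32, -0.21 and -0.17, and were the only 4 of the 23 genes called lower there. Of the 9 called higher, FD1 had the largest log2FC, 0.86. FD1 was at 133 ± 15.5 TPM in bhlh89,91 and 74.7 ± 4.99 TPM in Col-0 in low light (SD, n = 4 each). The LHCII kinase STN7 was not called for light, at -0.29 and 0.049, and was higher in bhlh89,91 in normal light at 0.46. GLK1 (AT2G20570), a transcription factor that activates photosystem genes, fell to 35.5 ± 7.43 TPM in bhlh89,91 in low light, against 60.5 ± 0.734 TPM in bhlh89,91 in normal light, and to 23.9 ± 1.205 TPM in Col-0 in low light, against 48.3 ± 4.82 TPM in Col-0 in normal light (SD, n = 4 each). Its log2FCs were -0.75 ± 0.10 and -1.004 ± 0.10 (SE, edgeR adjusted p = 5.61e-05 and 9.03e-07), and between genotypes it was higher in bhlh89,91 at 0.59 in low light and 0.33 in normal light. GLK2 (AT5G44190) was called only between genotypes in low light, at 0.32.

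Markers of floral organs, tapetum and meiosis were counted as well. Of all genes tested, 16.6% were lower in low light in bhlh89,91, and in Col-0 28.9% were lower and 29.1% higher. In low light 25.1% of all genes tested were higher in bhlh89,91 than in Col-0. The 5 tapetum genes, DYT1, TDF1, AMS, MS188 and MS1, summed to 231 to 393 TPM in bhlh89,91 in low light and 338 to 475 TPM in bhlh89,91 in normal light, and to 187 to 216 TPM in Col-0 in low light and 288 to 331 TPM in Col-0 in normal light. In Col-0 4 of the 5 were lower in low light, and in bhlh89,91, where the sums of the light conditions overlapped, 1 of the 5 was. In low light 3 of the 5 were higher in bhlh89,91 than in Col-0. The study places these tapetum genes in the regulatory network of the mutated bHLH89 and bHLH91. Between genotypes, tapetum content and regulation therefore cannot be told apart in them. Both meiosis genes, DMC1 and SDS, were lower in low light in each genotype, and higher in bhlh89,91 than in Col-0 in low light. Of the 5 floral organ identity genes 3 were lower in low light in bhlh89,91 and 3 in Col-0, with 1 higher there, and 2 were higher in bhlh89,91 than in Col-0 in low light. Their summed level was 885 to 995 TPM in bhlh89,91 in low light and 1010 to 1065 TPM in bhlh89,91 in normal light, and 831 to 871 TPM in Col-0 in low light and 928 to 1006 TPM in Col-0 in normal light. The part of bud stage and tissue make-up in the values of the photosystem genes was not tested.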

How the data were processed

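The authors mapped reads of poly-A RNA (BGISEQ-500) with Salmon to the AtRTD2 transcripts, and tximport gave the deposited estimated counts and the deposited TPM of each gene by its length-scaled method. The genome build behind AtRTD2 is not given in the sources used here, and counting by strand is not stated, so 17 members that another annotated gene overlaps may share reads with it. The names of the columns give genotype and light but not the sample, so each column was used as a replicate of its group.

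Estimated counts were rounded and fitted in R 4.3.3 with edgeR 4.0.16 (TMM, quasi-likelihood, 1 mean per group, 16 libraries, 12 residual degrees of freedom), keeping the 21309 genes that reached 1 CPM in any library. The SE was taken as the size of the log2FC over the root of the F statistic. edgeR takes the place of limma, which the study used, and p-values were Benjamini-Hochberg adjusted over all tested genes. Alternatives were limma-voom and limma-trend on TPM (limma 3.58.1), DESeq2 1.42.0, other normalizations and filters, fits of only the groups compared, counts summed over each gene family, each library left out, and a block by column number, which was added after the data were seen. The fits were tested on simulated data. Replicate pairs differed by more than counting noise.

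Members and lists were chosen with earlier results of these data known. Values in every library are given for the most abundant member of each role, the 4 smallest adjusted p of each comparison, DEGs, and the 6 smallest adjusted p of the interaction. Pathway genes are named where called. The comparison with genes of at least 100 TPM was added after results were seen. ATPC1 was not analysed here, and MGH3 was below the filter. Positions, shared 31-base stretches and upstream windows were read from TAIR10.1 with RefSeq's annotation, which matched all 43 members.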

Additional observations from a re-analysis of the deposited data

Results flagged for a closer look

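In 5 of the 172 groups of 4 libraries looked at (43 genes in 4 groups), 1 library lay far from the others by Dixon's criterion, and chance alone marks about 1 group in 20. LHCB3 was at 1368 TPM in bhlh89,91 low light column 1, against 1238 to 1257 TPM in the other libraries of that group. PSAH1 was at 839 TPM in bhlh89,91 low light column 4, against 771 to 781 TPM. PSAG was at 806 TPM in bhlh89,91 normal light column 4, against 905 to 915 TPM. PSBW was at 1005 TPM in Col-0 low light column 3, against 915 to 927 TPM, and LHCA2 at 874 TPM in Col-0 normal light column 3, against 838 to 844 TPM. No library occurs in this list more than once.

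By the test of the interaction, the light response differed between genotypes in 12 of the 43 members, all above 0. Of all genes tested, 11.9% were called above 0 and 11.1% below. Of the 38 members of at least 100 TPM 31.6% were called above 0, against 33.0% of all 1681 genes at that level. Of the 12 calls, 5 were kept without any single library and under every other tool, normalization and filter applied to the single genes. Each value is the light log2FC of bhlh89,91 minus that of Col-0. It was 0.52 for LHCB1.2, 0.20 for LHCB5 and 0.31 for LHCB6. Among PSA genes it was 0.25 for PSAD1, 0.27 for PSAE1, 0.18 for PSAF, 0.37 for PSAH2 and 0.22 for PSAO. Among PSB genes it was 0.22 for PSBP1, 0.30 for PSBQ1, 0.26 for PSBS and 0.30 for PSBX.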

How the results depend on the processing

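No paired analysis was possible by the replicate numbers of the labels, because the columns of the tables are numbered otherwise. With the column number as a replicate block, a fit added after the data were seen, 19, 30, 28, 9 and 15 members were called, of which 18, 30, 26, 7 and 11 were called without the block, in the order of comparisons given below. The call of PSAF for the interaction was lost (0.19, edgeR adjusted p = 0.0510). Over all genes tested, the deviations from the group means of the 24 pairs of libraries of equal column number correlated at -0.20 to 0.24, against -0.28 to 0.30 for the other 72 pairs of libraries of unlike groups. Under the study's DEG limits the members passing numbered 2 for light in bhlh89,91, 2 for light in Col-0, 0 between genotypes in low light, 1 in normal light and 0 for the interaction, in place of 18, 30, 26, 7 and 12. The interaction count was 7 with limma-trend on log2(TPM + 1) without a filter, and 6 to 16 with each library left out in turn. All other totals over both directions, under the other tools, normalizations and filters and without each library, stayed within 1.5 times those reported. Small counts in 1 direction moved more, as the 2 members lower between genotypes in low light, of which there were 0 to 4 under these settings. With counts summed over a gene family, the log2FC turned from that of the single gene in 4 cases: LHCB1.1 for light in bhlh89,91 (summed 0.24), LHCB1.4 for light in Col-0 (-0.041), and LHCB4.3 between genotypes in low light (-0.017) and normal light (-0.018). This follows from the sum being led by the more abundant genes of the family. Calls of single genes kept under every tool, normalization and filter and without each library numbered 12 of 18, 27 of 30, 18 of 26, 3 of 7 and 5 of 12, in the same order. No other setting turned a direction, and the normalizations moved the median of all genes by less than 0.1 on the log2 scale. With 4 libraries a group, the smallest log2FC of a member that was called was 0.13 in size.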

Other observations

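Over the 16 libraries, which span the 4 groups and so share the differences between them, most members varied together on the log2(TPM + 1) scale, and a few ran against the rest. The median correlation of a member with the other 42 was highest for LHCB2.2 (r = 0.85) and LHCB6 (r = 0.84). It was negative for LHCB1.4 (r = -0.65), LHCA4 (r = -0.58), LHCB7 (r = -0.44), LHCB1.3 (r = -0.36), PSAE2 (r = -0.35), LHCB1.5 (r = -0.22) and LHCA3 (r = -0.0062). The member most like LHCB1.4 was LHCB1.3 (r = 0.87), followed by LHCA4 (r = 0.85). The member most like PSBS was LHCB2.2 (r = 0.96). With the transcription factor gene GLK1, PSBS had r = 0.98, LHCB4.3 r = 0.96 and LHCB2.2 r = 0.95, whereas LHCB1.4 had r = -0.93 and LHCA4 r = -0.84. These are descriptions without a test.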
